A study of Mus musculus with 6 samples.

Results

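The genes described here encode the subunits of RNA polymerases I, II and III. They were chosen by name, as every protein-coding mouse gene whose symbol begins with Polr1, Polr2 or Polr3 followed by a letter, and 28 of the 49315 genes in the count files met this rule. The 28 genes fall into 6 large catalytic subunits, 5 small subunits that all 3 polymerases share, 2 that polymerases I and III share, 1 of polymerase I alone, 6 of polymerase II alone and 8 of polymerase III alone. All 28 had at least 10 counts in every library and entered the test.

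RNA polymerase I makes the large ribosomal RNA precursor, RNA polymerase II makes messenger RNA, and RNA polymerase III makes transfer RNA, the small ribosomal RNA and other short RNAs. Each enzyme is built around a pair of very large subunits that form the catalytic cleft, with smaller subunits on its surface, some of which are used in more than 1 enzyme. Blood stem cells are known for low synthesis of RNA and protein, which rises as they enter the progenitor stages.

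Bulk RNA-seq was read from 6 libraries of sorted mouse bone marrow cells, 1 library for each of 3 populations (LT-HSC, ST-HSC and MPP) in WT and in ING4-/- mice, which lack the chromatin reader ING4. LT-HSCs and ST-HSCs are the blood stem cells able to refill the marrow for a long or a short term, and MPPs are the multipotent progenitors below them. Marrow of 8 to 10 mice was pooled per genotype and 1000 to 10000 cells were sorted per population. The control mice were C57BL/6 WT animals of 8 to 12 weeks, the age and sex of the ING4-/- mice were not given in the sources used here, and neither genotype received a treatment. The sources used here name no cell type to which the deletion is limited, and each library came from a pool, so animal-to-animal spread was not measured. The comparison asks which genes differ between ING4-/- and WT stem and progenitor cells as 1 group each, so the populations stood in for replicates, and p-values measure only the spread between these libraries.

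Ing4, the targeted gene, was counted 247, 162 and 247 times in the WT libraries (LT-HSC, ST-HSC and MPP, the order used throughout) and 0, 24 and 76 times in ING4-/-. Total counts were 7839326 to 9363442 in the WT libraries and 35596876 to 39192588 in the ING4-/- libraries. The WT libraries also carried counts on genes that these cells do not use. The 1431 olfactory and vomeronasal receptor genes had 18.1 to 22.7 counts per kb of exon in WT and at most 0.0851 in ING4-/-. Spread over all genes by exon length, this background makes up 22.6 to 33.4% of WT counts, 11.2 to 17.5% of WT counts on the polymerase genes, and at most 0.0280% of ING4-/- counts. The 5 gate markers Kit, Ly6a, Cd34, Cd48 and Slamf1 summed to 861 to 1678 CPM (counts scaled to the library total) in WT and 1153 to 2476 in ING4-/-. The sum mixes markers that the gates select for and against, since every population was sorted as CD48-negative. Cd48 had 6.38, 19.1 and 40.2 CPM in WT and 0, 28.5 and 109.7 in ING4-/-. Slamf1 had 125.8, 93.8 and 35.9 CPM in WT and 97.5, 23.5 and 7.63 in ING4-/-. Of the markers of other blood cells, 2 of 5 erythroid, 1 of 6 granulocyte, 1 of 5 B cell and 0 of 5 T and NK cell genes were higher in every ING4-/- library than in every WT library. Their summed levels were 19.1 to 56.5 against 41.2 to 143.8 CPM for erythroid cells, 33.0 to 36.3 against 42.8 to 61.0 for granulocytes, 74.0 to 83.4 against 55.9 to 98.5 for B cells and 94.5 to 160.9 against 54.1 to 246.8 for T and NK cells, WT first. The B cell genes Cd79a, Ebf1 and Pax5 had no counts in any ING4-/- library. The part of depth, background and other cells in the results below was not tested except where a value is given, and in bulk samples fewer cells of a type and less RNA per cell cannot be told apart.

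The smallest and the largest subunits are shown first, because short and long members are compared in many of the results below. The coding sequences are those of the GENCODE M21 transcripts on GRCm38. Polr2k, at chr15:36174010-36177010 on the plus strand, and Polr2l, at chr7:141471860-141475132 on the minus strand, encode small zinc-binding subunits present in all 3 enzymes. Cysteine codons (TGT and TGC) in reading frame are in capitals, 4 in each gene. For Polr2k the longest annotated coding sequence of 300 bases is shown.
Polr2k: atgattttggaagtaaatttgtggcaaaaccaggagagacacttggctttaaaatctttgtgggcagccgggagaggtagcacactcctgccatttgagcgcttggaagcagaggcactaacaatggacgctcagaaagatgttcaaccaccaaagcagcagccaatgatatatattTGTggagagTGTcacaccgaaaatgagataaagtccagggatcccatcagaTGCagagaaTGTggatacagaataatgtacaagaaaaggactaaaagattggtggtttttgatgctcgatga
Polr2l: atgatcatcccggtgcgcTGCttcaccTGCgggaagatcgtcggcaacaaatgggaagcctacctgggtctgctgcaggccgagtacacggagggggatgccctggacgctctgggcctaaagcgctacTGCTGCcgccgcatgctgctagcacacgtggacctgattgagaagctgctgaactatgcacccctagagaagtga
Polr2a, at chr11:69733997-69758637 on the minus strand, encodes the largest subunit of polymerase II, with a coding sequence of 5913 bases against 204 for Polr2l. Its tail is a run of heptad repeats that kinases phosphorylate during transcription. Searched in frame on the coding strand for TANTCNCCN, where TAT or TAC is the codon of tyrosine, TCN that of serine and CCN that of proline, Polr2a holds 37 matches and the other 27 genes hold 0. Coding bases 4927 to 5052 are shown, with the matches in capitals.
Polr2a: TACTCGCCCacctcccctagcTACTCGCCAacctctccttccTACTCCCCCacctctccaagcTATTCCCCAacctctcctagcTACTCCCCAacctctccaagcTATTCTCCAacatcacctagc

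Of the 28 polymerase genes, 15 rose in ING4-/- cells and 0 fell, at an adjusted p under 0.05 (quasi-likelihood test of edgeR, Benjamini-Hochberg adjustment over 31001 genes) and a log2 fold change over 1. Among all genes tested, 7.98% were called higher and 56.7% lower. The median log2 fold change of all genes was -6.85 against 1.17 for the polymerase genes. A stricter set of 9673 genes kept those with 10 or more counts in each library and holds all 28. In it, 10 of the 28 were called higher and 0 lower in a fit of their own, against 8.3% and 9.68% of all genes in it. In that fit the median was 0.67 for the polymerase genes and 0.020 for all genes. In every ING4-/- library 16 of the 28 genes stood above every WT library, against 12% of all genes tested and 35.9% of those with at least 10 counts. Polr3a alone stood below in all 3, as did 62.9% of all genes tested and 13.1% of those with at least 10 counts, and the other 11 genes overlapped between genotypes. At an unadjusted p under 0.05, 0 of the 28 were lower in edgeR, and DESeq2 called 11 higher and 1, Polr3a, lower, against 3.68% and 57.2% of 42309 genes.

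**Figure D1:**
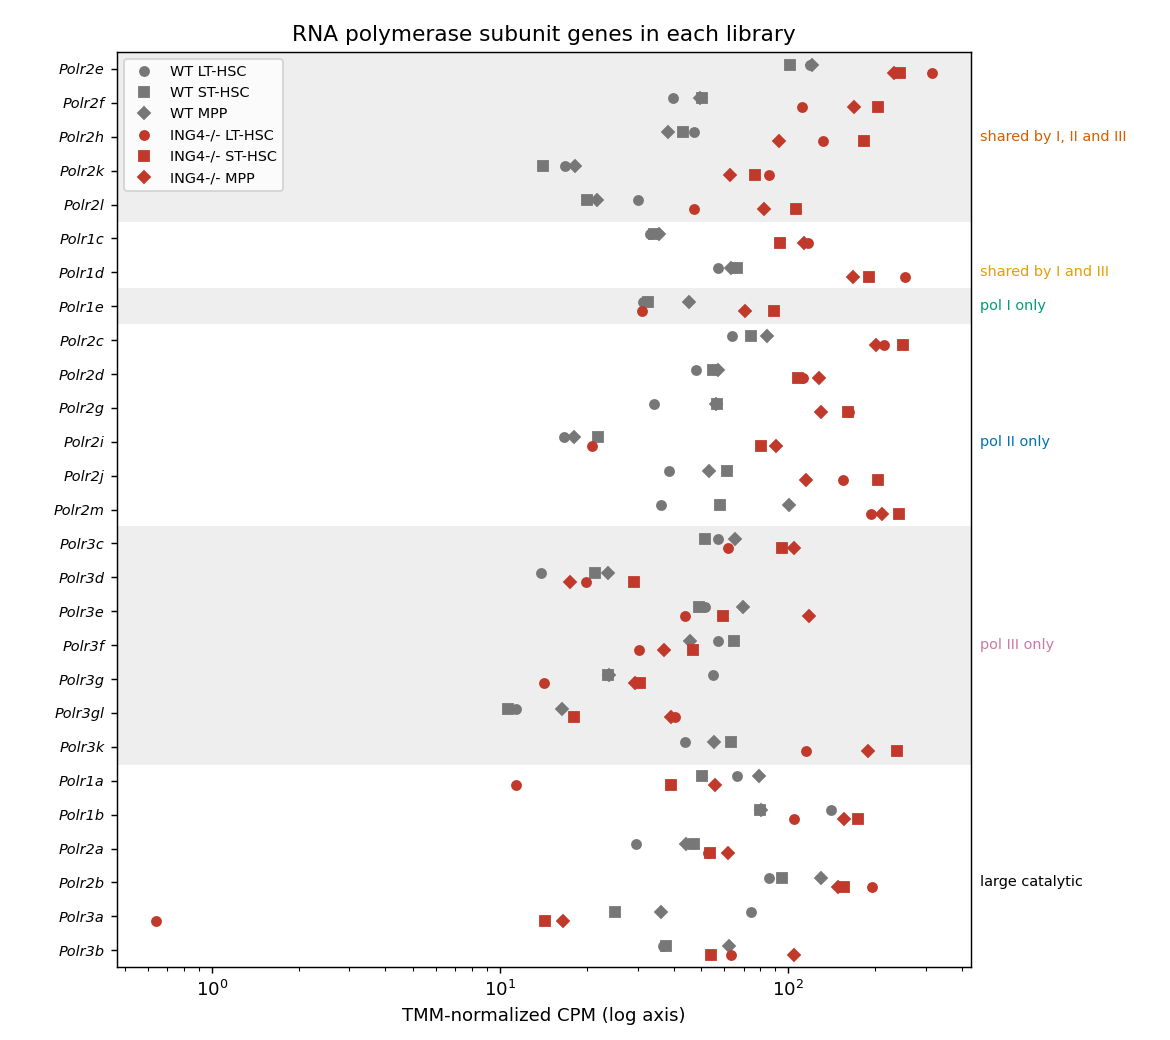
TMM-normalized CPM on a log axis for 27 of the 28 polymerase genes, ordered by subunit class, with 1 point per library (grey WT, red ING4-/-, symbol by population). The 5 small shared subunits show no overlap between genotypes, while Polr3a of ING4-/- LT-HSCs lies apart at 0.639 CPM.

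The 5 small subunits shared by polymerases I, II and III were all higher in ING4-/- cells, with a median log2 fold change of 1.71. Polr2k stood at 16.7, 14.1 and 18.2 TMM-normalized CPM in WT and at 85.9, 76.8 and 62.9 in ING4-/-. The genotypes did not come near each other, and the log2 fold change of 2.20 (standard error 0.30, edgeR adjusted p = 0.000687) was the largest of the 28. Polr2l had 30.1, 20.02 and 21.8 CPM in WT and 47.0, 106.2 and 82.5 in ING4-/-, again without overlap, with the smallest gap in LT-HSCs. Its log2 fold change was 1.71 (standard error 0.40, edgeR adjusted p = 0.00612). Without either ST-HSC or MPP libraries of both genotypes, its adjusted p was 0.0777 and 0.0819, in the same edgeR test.

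Polr2e, at chr10:80035949-80039795, and Polr2f, at chr15:79141351-79151774, encode further common subunits near the jaw and the clamp of the enzymes. Polr2e was the most counted of the 5, with 119.5, 101.4 and 120.8 CPM in WT and 316.3, 245.2 and 232.1 in ING4-/-. Polr2f had 39.9, 50.4 and 49.3 CPM in WT against 111.8, 205.2 and 169.7 in ING4-/-. Both were higher in each of the 3 ING4-/- libraries than in any WT library, by 1.22 and 1.80 on the log2 scale, respectively. Polr2h, at chr16:20717665-20722267, whose product binds the largest subunits, had 47.3, 43.1 and 38.4 CPM in WT and 132.0, 183.6 and 92.9 in ING4-/-, a log2 fold change of 1.67 (standard error 0.30, edgeR adjusted p = 0.00194). The edgeR adjusted p was 0.00126 for Polr2e and 0.00109 for Polr2f.

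With the background subtracted from every count, 6 of the 28 genes were called higher and 0 lower, against 5.6% and 38.7% of 19744 genes. All 5 small shared subunits had positive values, with a median of 1.01. Polr2k (1.52, edgeR adjusted p = 0.00825) and Polr2f (1.01, edgeR adjusted p = 0.0202) were still called. Polr2h (0.95) and Polr2l (1.12) were not called, and Polr2e stood at 0.48 (edgeR adjusted p = 0.0948). In an alternative chosen after seeing the data that subtracted the background and kept population as a block, 0 of the 28 were called in either direction, against 0.917% higher and 0.907% lower of 19744 genes. The 6 genes called after subtraction alone, Polr1c, Polr1d, Polr2c, Polr2f, Polr2k and Polr3k, then had log2 fold changes of 0.99 to 1.51 and edgeR adjusted p-values of 0.0680 to 0.0864. The background took up 1.96 to 20.2% of the WT counts of these genes, lowest in Polr2f and highest in Polr2l of ST-HSCs. Polr2k and Polr2l also have processed copies in the genome with which reads may be shared. Gm14567 matches Polr2k at 100% over 174 bases and had 0, 7 and 8 counts in WT and 31, 41 and 29 in ING4-/-. Gm46136 matches it at 97.4% over 189 bases and had 310, 296 and 315 counts in WT, more than Polr2k itself with 159, 131 and 185, and 3, 4 and 6 in ING4-/-. The values of Polr2k are therefore uncertain. Gm10774 matches the whole coding sequence of Polr2l at 99.5% and had 0 counts in all 6 libraries. A transcript of Usp50 matches it equally well, and Usp50 had 30, 60 and 86 counts in WT and 66, 156 and 143 in ING4-/-, so the values of Polr2l are uncertain too.

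The 6 large catalytic subunits were not called by edgeR in either direction, and their median log2 fold change was 0.50. At an unadjusted p under 0.05, 1 of them was higher and 0 lower, and DESeq2 called 0 higher and 1 lower. Polr2a had 29.6, 47.2 and 44.2 CPM in WT and 52.6, 53.6 and 62.0 in ING4-/-. The ING4-/- libraries were all higher, but by little in ST-HSCs, and the log2 fold change of 0.48 (standard error 0.31) had an edgeR adjusted p of 0.216. Polr2b, at chr5:77310147-77349324, encodes its partner in the catalytic cleft and had 85.6, 94.96 and 130.4 CPM in WT against 195.6, 156.3 and 149.4 in ING4-/-. Without overlap between genotypes, its log2 fold change was 0.69 (standard error 0.24, edgeR adjusted p = 0.0383), under the fold used for a call. It was 0.038 with the background subtracted.

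For polymerase I, Polr1a, at chr6:71909053-71984935, had 66.7, 50.3 and 79.2 CPM in WT and 11.3, 39.2 and 55.8 in ING4-/-. The libraries overlapped, and the log2 fold change of -0.88 (standard error 0.57, edgeR adjusted p = 0.217) rested most on LT-HSCs and was -0.43 without the ING4-/- LT-HSC library. Polr1b, at chr2:129100995-129126594, encodes the other large subunit and had 140.4, 80.0 and 80.5 CPM in WT and 104.5, 174.8 and 156.0 in ING4-/-. It was lower than WT in LT-HSCs and higher in ST-HSCs and MPPs. Its log2 fold change was 0.53 (edgeR adjusted p = 0.189), and without the LT-HSC libraries of both genotypes it was 1.08 (edgeR adjusted p = 0.00694), a call.

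For polymerase III, Polr3a, at chr14:24448694-24487046, was the gene with the lowest fold change of the 28. It had 708, 232 and 368 counts in WT and 20, 454 and 560 in ING4-/-, which are 74.6, 24.98 and 36.1 CPM against 0.639, 14.4 and 16.5. The genotypes did not overlap, with the widest gap in LT-HSCs, and the log2 fold change was -2.11 (standard error 1.07, edgeR adjusted p = 0.125). Without the ING4-/- LT-HSC library it was -1.53 (edgeR adjusted p = 0.0413), a call, and without the LT-HSC libraries of both genotypes it was -0.95 (edgeR adjusted p = 0.144). Polr3b, at chr10:84622292-84727178, which completes the cleft, had 36.7, 37.8 and 62.1 CPM in WT and 63.2, 54.2 and 104.7 in ING4-/-. It was higher in ING4-/- within each population, though WT MPPs lay above ING4-/- ST-HSCs, with a log2 fold change of 0.70 (edgeR adjusted p = 0.145).

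The share of background differed widely among the catalytic genes. It made up 26.6 to 57.8% of the WT counts of Polr1a, 28.3 to 56.3% of those of Polr2a and 6.35 to 12.8% of those of Polr2b. With it subtracted, the median of the 6 was -0.030, with 3 positive and 3 negative, and 0 were called.

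**Figure D2:**
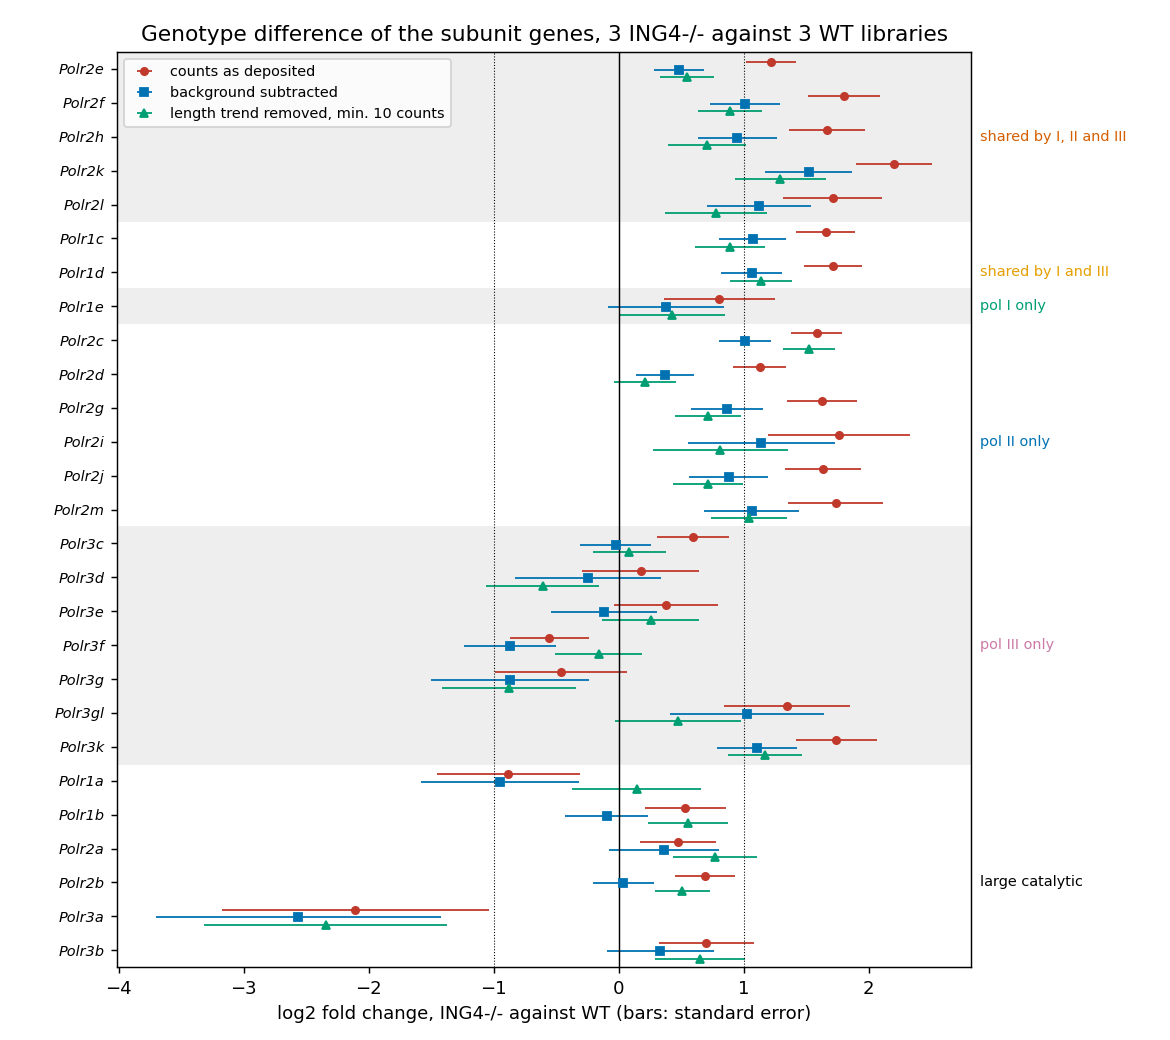
Log2 fold change of ING4-/- against WT with its standard error for 27 of the 28 genes, from the counts as deposited (red circles), after background subtraction (blue squares) and after removal of the trend on exonic length (green triangles). Dotted lines mark a log2 fold change of 1 in either direction. The small shared subunits lie at 1.22 to 2.20 as deposited, and background subtraction moves their median to 1.01 and that of the catalytic subunits from 0.50 to -0.030.

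A ratio within each library compares small and large subunits without any scaling between libraries. The 5 small shared genes had 0.585, 0.683 and 0.574 times the counts of the 6 catalytic genes in WT, and 1.62, 1.66 and 1.18 times in ING4-/-. The ratio was thus 0.614 ± 0.060 (SD, n = 3) in WT and 1.48 ± 0.27 (SD, n = 3) in ING4-/-, with no overlap. The log2 difference was 1.26, and the exact two-sided permutation test gave p = 0.1, the smallest that 3 against 3 libraries allow. By population it was 1.47 (LT-HSC), 1.28 (ST-HSC) and 1.03 (MPP). After background subtraction the WT ratios were 0.696, 0.888 and 0.651 and the log2 difference was 0.99, with the same exact permutation p = 0.1.

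**Figure D3:**
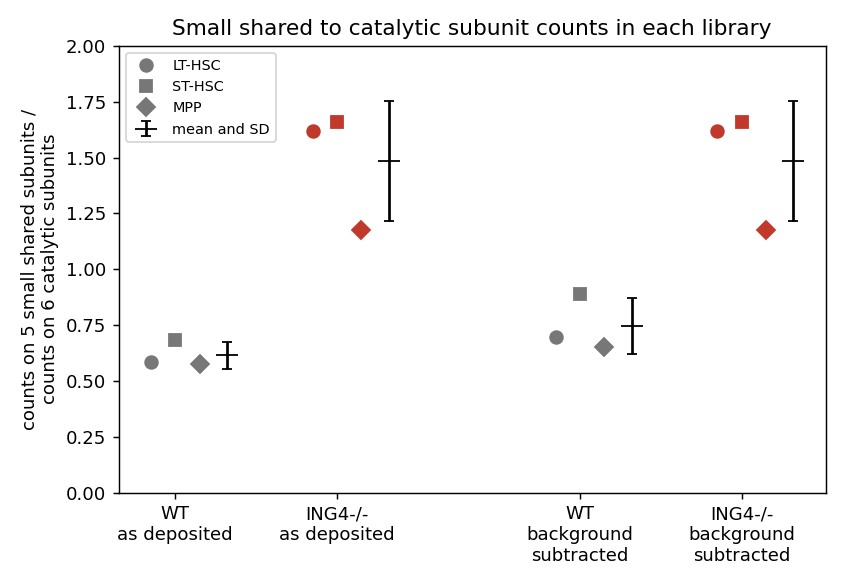
Summed counts of the 5 small shared subunits divided by those of the 6 catalytic subunits in each library (symbol by population), with mean and SD of 3 libraries in black, as deposited and after background subtraction. The ING4-/- libraries lie at 1.18 to 1.66, above every WT library in both forms.

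The order by size was not particular to the polymerase genes. Across the 28, the log2 fold change went down with the log10 coding length (Pearson r = -0.67, Spearman rho = -0.78), and across 9012 protein-coding genes of the stricter set r was -0.55. These are descriptions across genes, which share the same 6 libraries and are not independent replicates. For genes of the stricter set, the calls and medians given next come from the fit of all genes tested. Of 1390 other genes in that set with coding lengths of 204 to 633 bases, the range of the small shared subunits, 59.2% were called higher. Their median was 1.31 against 1.71 for the 5 subunits. Of 607 others with 3402 to 5913 coding bases, the range of the catalytic subunits, 0.824% were called higher and 21.1% lower, and their median was -0.68 against 0.50.

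With the background subtracted, the same comparison gave medians of 1.01 for the small subunits against 0.82 for 1390 other genes, and -0.030 for the catalytic subunits against -0.71 for 604 others. With each library's trend on exonic length removed and at least 10 counts in every library, the small subunits had a median of 0.78 against 0.65 for others of their coding length. The catalytic subunits then had 0.53 against -0.12. The gap between the medians of the small and the catalytic genes was 1.21 in the counts as deposited and 0.25 once the trend on exonic length was removed. Part of the order by coding length remained across the 28 genes (Pearson r = -0.37, Spearman rho = -0.47). In that fit 5 of the 28 genes were called higher and 0 lower, against 9.41% and 4.25% of 9673 genes. They were Polr1d, Polr2c, Polr2k, Polr2m and Polr3k.

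Polr1c and Polr1d, the pair shared by polymerases I and III that forms the assembly platform of both enzymes, were both higher in ING4-/- cells. Polr1c, at chr17:46243920-46248054, had 33.1, 34.3 and 35.6 CPM in WT and 117.4, 93.5 and 113.8 in ING4-/-. Polr1d, at chr5:147077050-147111597, had 57.1, 66.5 and 63.5 CPM in WT and 254.6, 191.4 and 168.4 in ING4-/-. Neither overlapped between genotypes. Their log2 fold changes were 1.66 (standard error 0.24) and 1.72 (standard error 0.23), with edgeR adjusted p-values of 0.000735 and 0.000661, and 1.07 and 1.06 with the background subtracted, when both were still called. Polr1e, the 1 smaller subunit particular to polymerase I that the name rule covers, where it helps initiation and elongation, had 31.3, 32.7 and 45.1 CPM in WT and 31.0, 89.2 and 70.6 in ING4-/-. Its 2 LT-HSC libraries were nearly level, and its log2 fold change of 0.81 (standard error 0.44, edgeR adjusted p = 0.151) was not called. It was 1.16 (edgeR adjusted p = 0.0113), a call, without the ING4-/- LT-HSC library.

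All 6 genes of polymerase II alone were called higher, at log2 fold changes of 1.13 to 1.76, against 7.98% of all genes tested. Polr2d, Polr2g, Polr2i and Polr2j have 354 to 519 coding bases. In the same fit, 59.2% of other genes with 204 to 633 coding bases and at least 10 counts in every library were called higher. With the background subtracted 1 of them, Polr2c, was called, against 5.6% of 19744 genes called higher. With the length trend removed 2 were called, Polr2c and Polr2m, against 9.41% of 9673. The others stood at 0.37 (Polr2d), 0.87 (Polr2g), 0.88 (Polr2j), 1.06 (Polr2m) and 1.14 (Polr2i) after background subtraction. Polr2c, which encodes the subunit that nucleates assembly, had 64.0, 74.5 and 84.2 CPM in WT and 214.6, 251.0 and 202.0 in ING4-/-, with no overlap. Its log2 fold change of 1.58 (standard error 0.21, edgeR adjusted p = 0.000657) was 1.01 with the background subtracted and 1.52 with the length trend removed, and it was called in both. In an alternative chosen after seeing the data that removed background and length trend together, Polr2c was the 1 gene of the 28 still called higher and 0 were lower, against 3.62% and 2.86% of 8086 genes. Of its exonic bases, 18.1% lie opposite exons of Dok4, and its processed copy Gm11993 had at most 20 counts in a library.

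Polr2d and Polr2g encode the stalk of polymerase II, which sits by the RNA exit. Polr2d had 47.9, 54.8 and 57.0 CPM in WT and 112.5, 107.9 and 128.3 in ING4-/-, and Polr2g 34.1, 56.7 and 56.3 against 162.9, 161.7 and 129.8. Both were apart in every library, with log2 fold changes of 1.13 and 1.63. Polr2d had an edgeR adjusted p of 0.00237, and of 0.0549 without the MPP libraries of both genotypes. Polr2j, the partner of Polr2c in the assembly platform, had 38.4 to 61.3 CPM in WT and 115.3 to 204.4 in ING4-/-, a log2 fold change of 1.64, and 15.9% of its exonic bases lie opposite exons of Lrwd1. Polr2m, which encodes the polymerase II-associated Gdown1 and not a core subunit, had 36.2, 57.8 and 100.3 CPM in WT and 194.1, 242.1 and 211.0 in ING4-/-. The WT libraries of Polr2m spread widely but stayed below ING4-/- in full, with a log2 fold change of 1.74. Of its exonic bases, 17.4% are shared with a further gene on its own strand, which leaves its counts uncertain.

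Polr2i, whose zinc-binding product takes part in start site choice and proofreading, was the exception in its class for overlap. It had 16.6, 22.0 and 18.1 CPM in WT and 20.8, 80.5 and 90.8 in ING4-/-, so that ING4-/- LT-HSCs lay below WT ST-HSCs. Its log2 fold change was 1.76 (standard error 0.57, edgeR adjusted p = 0.0275), and the adjusted p was 0.0611 with population as a block. The call was lost without any 1 of the other 5 libraries, at edgeR adjusted p-values of 0.0649 to 0.104, and kept without the ING4-/- LT-HSC library (2.21). Of the exonic bases of Polr2i, 26.8% lie opposite exons of Tbcb, and whether the counting used strand is not given in the sources used here.

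Of the 8 genes of polymerase III alone, 2 were called higher, Polr3k and Polr3gl, against 7.98% of all genes tested. The class median was 0.48. Polr3k, which encodes the small RNA-cleaving subunit used in termination, had 44.0, 63.5 and 55.1 CPM in WT and 115.6, 239.5 and 189.1 in ING4-/-. It did not overlap, and its log2 fold change was 1.74 (standard error 0.32, edgeR adjusted p = 0.00207), or 1.10 with the background subtracted, still a call. Polr3g and Polr3gl encode alternative versions of the same subunit. Polr3gl had 11.4, 10.7 and 16.4 CPM in WT and 40.4, 18.1 and 39.4 in ING4-/-, apart in full but close for ST-HSCs. Its log2 fold change of 1.35 (standard error 0.50) had an edgeR adjusted p of 0.0483, and of 0.146 with population as a block. The call was lost without any 1 library other than that of ING4-/- ST-HSCs, with edgeR adjusted p-values of 0.0748 to 0.172. Polr3g had 54.7, 23.8 and 23.9 CPM in WT and 14.2, 30.7 and 29.4 in ING4-/-, lower in LT-HSCs and slightly higher in the other populations, a log2 fold change of -0.46 (edgeR adjusted p = 0.481).

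Polr3c and Polr3f belong with Polr3g to the trimer that opens the promoter. Polr3c had 51.2 to 65.4 CPM in WT and 62.0 to 104.6 in ING4-/- (log2 fold change 0.59), and Polr3f had 45.7 to 64.9 against 30.4 to 46.9 (-0.55). Polr3d and Polr3e form a dimer on the enzyme's lobe, and their log2 fold changes were 0.17 and 0.38 with overlapping libraries. None of these 4 passed the test, at edgeR adjusted p-values of 0.109 to 0.768.

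Within a population each ratio sets 1 ING4-/- library against 1 WT library, without replicates. ING4-/- was higher than WT in all 3 populations for 20 of the 28 genes and lower in all 3 for Polr1a, Polr3a and Polr3f, against 15% and 66% of all genes tested and 44.7% and 17.6% of those with at least 10 counts. The median log2 ratio over the 28 genes was 1.01 (LT-HSC), 1.20 (ST-HSC) and 1.10 (MPP). For the small shared subunits it was 1.48, 2.09 and 1.78, and for the catalytic subunits 0.18, 0.35 and 0.34. By these medians the small subunits were higher in each population by more than the catalytic ones. Single genes did not all follow, as Polr2l stood at 0.64 and Polr2b at 1.19 in LT-HSCs.

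The populations themselves were compared with genotype as a block. Of the 28 genes, 0 were called by edgeR between LT-HSCs, ST-HSCs and MPPs at an adjusted p under 0.05, as were 0% of the 31001 genes tested. At an unadjusted p under 0.05 there were 425 genes and 0 of the 28. The smallest unadjusted edgeR p among the 28 was 0.0783, for Polr3k, which was 0.79 higher in ST-HSCs and 0.51 higher in MPPs than in LT-HSCs on the log2 scale.

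Levels between genes can be compared only per length, here as TMM-normalized CPM per kb of exon. In WT the 5 highest were Polr2f at 85.7 ± 10.6, Polr2g at 56.5 ± 14.9, Polr2d at 55.7 ± 5.0, Polr2j at 46.0 ± 10.5 and Polr2e at 42.7 ± 4.1 (SD, n = 3 libraries). Polr2f stood above the others in every WT library, while Polr2g, Polr2d and Polr2j overlapped with each other. Polr1a at 5.51 ± 1.22 and Polr2a at 5.71 ± 1.33 were lowest and did not differ beyond their spread. In ING4-/- the order began with Polr2f at 298.8 ± 86.9 and Polr2g at 174.5 ± 21.7 and ended with Polr1a at 2.99 ± 1.89 and Polr3a at 2.24 ± 1.84. Polr2k moved from rank 8 in WT to rank 5 in ING4-/-, and Polr3a from rank 20 to rank 28. The subunits of 1 enzyme are used in equal number in the protein complex, and their RNA levels per length differed widely in both genotypes.

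The polymerases work with a larger group of factors, and 72 from a written list could be tested. The call was higher for 17 and lower for 4, with a median log2 fold change of 0.43 in ING4-/-, against 7.98% and 56.7% of all genes tested. In the fit of the stricter set 4 were higher and 7 lower, against 8.3% and 9.68%. Subunits listed under other symbols were counted among them. Znrd1, a small zinc-binding subunit of polymerase I, rose by 1.79 (edgeR adjusted p = 0.00557) and Twistnb, of its stalk, by 1.51 (edgeR adjusted p = 0.00184). Crcp, of the polymerase III stalk (0.56), and Cd3eap, of polymerase I (-0.035), did not pass the test.

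Of the 7 polymerase I factors, 0 were called by edgeR in either direction, with 1 higher and 1 lower at an unadjusted p under 0.05 and 0 higher and 1 lower in DESeq2. Values ran from -0.88 for Ttf1, a termination factor, to 0.93 for Taf1b, a subunit of the promoter selectivity factor. Of the 18 general transcription factors of polymerase II, 5 rose and 1 fell in edgeR, while DESeq2 called 1 higher and 2 lower. The ends of this group were Gtf2h5 at 1.44 (edgeR adjusted p = 0.0147) and Gtf2h1 at -1.15 (edgeR adjusted p = 0.00655), both subunits of the DNA-opening factor TFIIH, with coding lengths of 216 and 1662 bases. Of the 19 pausing and elongation factors, 4 rose and 3 fell in edgeR, while DESeq2 called 3 higher and 4 lower. Supt4a, of the DSIF complex, rose by 1.95 (edgeR adjusted p = 0.000657) and Supt6, a histone chaperone, fell by 1.66 on the log2 scale (edgeR adjusted p = 0.00322), with coding lengths of 354 and 5181 bases.

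Of the 17 polymerase III factors, 3 rose and 0 fell in edgeR, also 0 at an unadjusted p under 0.05, while DESeq2 called 0 higher and 2 lower. Gtf3a, which binds the 5S ribosomal RNA gene, was the highest at 1.31 (edgeR adjusted p = 0.0152). Bdp1, a subunit of the initiation factor TFIIIB with 7416 coding bases, was the lowest at -2.26 (edgeR adjusted p = 0.0804), with 653, 604 and 661 counts in WT and 891, 381 and 35 in ING4-/-. Of the 7 factors for polymerase assembly and nuclear import, 3 rose and 0 fell in edgeR, also 0 at an unadjusted p under 0.05 and 0 in DESeq2, from Uri1, a prefoldin-like partner of Polr2e, at 1.90 (edgeR adjusted p = 0.00428) to Rpap1, an RNA polymerase II-associated protein, at -0.47. With the background subtracted, 1 of the 72 factors, Supt4a, was called higher and 5 were called lower, against 5.6% and 38.7% of 19744 genes. The 5, listed because they were called there, were Ttf1, Gtf2f1, Gtf2h1, Supt6 and Ctr9, at -1.30 to -2.06.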

How the data were processed

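Bulk RNA-seq of 6 libraries, 1 for each of 3 sorted populations and 2 genotypes, was analysed. The authors deposited raw counts of reads per gene, without normalization, with the exonic length of each gene beside them; library construction, sequencing and first analysis were done by a company. The submitters' processing notes name the build mm10, and the aligner, counter and strand setting are not given in the sources used here. Of 49315 identifiers, 49056 were found in GENCODE M21 (GRCm38), which gave symbols, positions and coding sequences; coding lengths are those of the longest annotated coding sequence.

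The 2 genotypes were compared, after the study's design, by the quasi-likelihood F test of edgeR 4.0.16 under R 4.3.3. Genotype was the only term, low counts were removed by filterByExpr, and libraries were scaled by TMM. Benjamini-Hochberg adjustment ran over 31001 genes. A call needed both an adjusted p under 0.05 and a log2 fold change beyond 1 in either direction. Standard errors are the fold change over the square root of F. CPM values were TMM-normalized, with a prior count of 2 for log2 ratios within a population. Exact permutation tests and tables used Python 3.11.15 with scipy 1.17.1. All statistics were tested on simulated data.

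Alternatives were other normalizations, DESeq2 1.42.0, other filters, thinning to WT depth, subtraction of the receptor gene background, removal of each library's loess trend on exonic length or GC content, population as a block and leaving out each library or population. Deviations from the genotype mean correlated between the 2 libraries of each population (r = 0.143, 0.110 and 0.121 over 9673 genes), and the population is the same in both, so populations pair the libraries. No libraries of a genotype were duplicates (chi-square over degrees of freedom of 15.4 or more). A count of 0 allows up to 3 counts, at most 0.383 CPM, which covers counting error only, since reads were counted without molecular identifiers.

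Every gene that met the name rule is named except 1 that is not reported here by itself but stays in the counts and medians, with 4 subunits under other symbols, the highest and lowest factor of each role and Ing4. The members and gene lists were chosen with earlier results of these data known.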

Additional observations from a re-analysis of the deposited data

Results flagged for a closer look

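Polr1b, Polr1e, Polr3d, Polr3e and Polr3g stood out because their log2 ratios of ING4-/- to WT did not have the same sign across the 3 populations. Each ratio compares 1 library with 1 other, and the difference between populations was not tested. Polr1b, a catalytic subunit of polymerase I, had a ratio of -0.42 for LT-HSCs and of 1.13 for ST-HSCs. Polr1e, also of polymerase I, ran from -0.012 in LT-HSCs to 1.44 in ST-HSCs, and Polr3e, of polymerase III, from -0.24 in LT-HSCs to 0.76 in MPPs. Polr3d had -0.43 in MPPs and 0.51 in LT-HSCs. Polr3g had the widest spread of the 5, from -1.94 in LT-HSCs to 0.37 in ST-HSCs, while its alternative form Polr3gl was at 1.82 in the former and 0.76 in the latter. In 4 of the 5 genes the lowest ratio was that of LT-HSCs.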

How the results depend on the processing

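Against the 15 of 28 polymerase genes called higher, the count was 11 with DESeq2's size factors in edgeR, with DESeq2 itself, with protein-coding genes only and with the trend on GC content removed. It was 13 with ING4-/- thinned to WT depth, 16 without a filter, 22 with upper-quartile normalization, 10 with at least 10 counts in every library, 5 when the length trend was also removed, and 6 with the background subtracted. Of all genes tested, 6.78% were called higher after thinning, 6.14% without a filter and 14.7% with upper-quartile normalization. The share was 4.33% with DESeq2's size factors, 6.17% with protein-coding genes only and 15.3% with the GC trend removed. In the alternatives chosen after seeing the data the count of polymerase genes was 0 with the background subtracted and at least 10 counts, against 3.97% of 8086 genes. It was 1 when the length trend was removed as well, and 0 with the background subtracted and population as a block. Genes called lower were 0 in all of these except DESeq2, with 1 (Polr3a). The median over all genes of the change in a gene's log2 fold change against TMM was -0.33 under the size factors of DESeq2 and 0.55 under the upper-quartile method. With population as a replicate block the count was 13, against 6.45% of all genes tested called higher and 54.4% lower. Polr2i and Polr3gl were lost, and the block changed no other call among the 28. The 13 had edgeR adjusted p-values of 0.0250 to 0.0369 with the block, against 0.000657 to 0.00612 without it. Across the fits that leave out a library or a population, 11 to 17 polymerase genes were called higher and 0 to 1 lower; the 1 was Polr3a without the ING4-/- LT-HSC library.

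The median of the 5 small shared subunits, 1.71, was 1.35 with DESeq2, 1.33 with its size factors, 1.33 with the GC trend removed, 1.36 with protein-coding genes only, 2.31 with upper-quartile normalization, 1.19 with at least 10 counts in every library, 0.78 with the length trend also removed, and 1.01 with the background subtracted. It was 0.91, 0.55 and 0.99 with the background subtracted plus the count minimum, plus count minimum and length trend, and plus the block, and 1.40 to 2.00 across fits without a library or population. The median of the 6 catalytic subunits, 0.50, was 0.15 with DESeq2, 0.13 with its size factors, 0.13 with the GC trend removed, 0.29 after thinning, 0.15 with protein-coding genes only and 1.10 with upper-quartile normalization. It turned to -0.012 with at least 10 counts and to -0.030 with the background subtracted, and was -0.13, 0.14 and -0.0018 in the 3 alternatives that combine background subtraction with other steps, in the order above, and 0.23 to 0.57 across fits without a library or population. The gap between the medians, 1.21, was 0.25 with the length trend removed, 0.41 with background and length trend removed, and 0.96 to 1.52 without a library or population. The log2 difference of the count ratio, 1.26, was 0.99 with the background subtracted.

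Among single genes the fitted values kept their sign except in 10. Polr3d, 0.17, was -0.16 with DESeq2, -0.18 with its size factors, -0.31 with the GC trend removed, -0.042 after thinning, -0.17 with protein-coding genes only, -0.32 with at least 10 counts, -0.61 with the length trend also removed, -0.24 with the background subtracted, and -0.33, -0.53 and -0.20 in the combined alternatives. Polr3e, 0.38, was -0.13 with at least 10 counts, -0.12 with the background subtracted, and -0.20 and -0.22 when the count minimum or the block was added to the subtraction. Polr3c, 0.59, was -0.024 with the background subtracted and -0.11, -0.11 and -0.049 in the combined alternatives. Polr1b, 0.53, was -0.097 with the background subtracted, -0.21 with the count minimum added and -0.046 with the block added. Polr2a was -0.029 with at least 10 counts, and Polr2b -0.042 with the background subtracted and the count minimum. Polr1a, -0.88, was 0.14 with the length trend removed and 0.092 with background and length trend removed, where Polr2d was -0.11. Polr3f, -0.55, was 0.040 and Polr3g, -0.46, was 0.13 with upper-quartile normalization. Without a library or population, Polr3d ranged from -0.067 to 0.34, Polr3e from -0.14 to 0.67 and Polr3g from -0.98 to 0.37. Over all 28 genes and all alternatives, 490 values kept direction and side of the threshold, 105 lost the call with the same direction, 15 gained it and 34 changed sign.

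For all genes tested, 2475 were called higher and 17566 lower. These were 1555 higher with DESeq2, 1342 with its size factors, 4556 with upper-quartile normalization, 1481 and 664 (higher and lower) with the GC trend removed, 803 and 936 with at least 10 counts, 910 and 411 with the length trend removed, 1148 and 7489 with protein-coding genes only, and 1106 and 7650 with the background subtracted. In the combined alternatives they were 321 and 472, 293 and 231, and 181 and 179, and without a library or population 1540 to 2804 higher. Of the 72 associated factors, 17 were higher and 4 lower. They were 8 and 9 with DESeq2, 7 and 7 with its size factors, 34 and 1 with upper-quartile normalization, 4 and 7 with at least 10 counts, 11 higher with the GC trend removed, 5 with the length trend removed, 6 with protein-coding genes only and 1 with the background subtracted, where 5 were lower. In the combined alternatives 1, 0 and 0 were higher and 5, 3 and 0 lower. Without a library or population 10 to 19 were higher and 2 to 6 lower. Between populations, 0 of the 28 genes were called by edgeR in any of the fits made, also without genotype as a term.

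The causes of these changes were not tested. WT libraries were shallower than ING4-/- and carried the receptor gene background, with 99 to 1333 WT counts per polymerase gene. With 3 libraries per genotype, each from a different population and a pooled sample, a permutation test cannot go below p = 0.1, and biological spread within a population was not measured.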
